A study of Mus musculus with 9 samples.

Results

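The genes described here are 36 mouse genes of the lysosome, chosen by name from the 23420 genes of a table of 9 RNA-seq libraries. They comprise 10 lysosomal proteases, 12 enzymes that cut sugars or sulfate from glycans, glycolipids or glycogen, 6 proteins that hydrolyse or carry lipids, 6 lysosomal membrane proteins, and the pair of progranulin (Grn) and the transcription factor TFEB (Tfeb). The rule used gene names and no measured value, but the list was drawn up with earlier results of these data known. All 36 were in the table and all 36 passed the filter on low values, under which 3 or more libraries had to reach a value of 10.

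Lysosomes are acidic organelles that digest material taken up from outside or delivered by autophagy. Most of their soluble hydrolases receive a mannose 6-phosphate tag in the Golgi and are carried by receptors to compartments that the vacuolar proton pump (V-ATPase) acidifies, while heavily glycosylated membrane proteins line the organelle. Macrophages use lysosomes to degrade what they engulf and to cut antigens, synovial fibroblasts use them in the turnover of collagen and proteoglycans, and TFEB and its relatives bind an E-box upstream of many lysosomal genes.

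RNA was collected from 3 cultures each of arthritis tissue-derived synovial macrophages (ADSM), arthritis tissue-derived synovial fibroblasts (ADSF) and normal tissue-derived synovial fibroblasts (NDSF), all primary cells at passage 1 from ankles of C57BL/6 mice. For ADSM and ADSF, collagen antibody-induced arthritis (CAIA) was started with 5 mg of antibodies to type II collagen and boosted on day 3 with 50 µg of lipopolysaccharide, and ankles were taken 10 days after induction, whereas NDSF came from normal ankles. Cells were freed with collagenase, those that attached to a collagen-coated dish within 1 h were expanded as fibroblasts, and those that did not were grown on an uncoated dish for 1 to 2 weeks before fibroblasts were removed with trypsin to leave ADSM. There was no group of macrophages from normal ankles, and no source read here states the age of the mice. ADSM and ADSF therefore both came from arthritic ankles but differed in dish and culture time, and ADSM and NDSF differed in cell type and ankle state. The labels name the same library kit for all samples, whereas the methods of the study name another kit for NDSF, so that the kit cannot be told apart from the ankle state for ADSF against NDSF, nor from cell type and ankle state for ADSM against NDSF. The study describes independent experiments with cells of separate ankles, but which ankle or animal gave which library is not given in the sources read here, and p-values measure the spread between these cultures.

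The libraries held 2380483 to 3351184 reads on genes. Every value given below is a TMM-normalized value, the read count of a gene divided by a scaling factor of its library, in which 1 read is worth 0.854 to 1.24. Markers fitted the labels, since 12 macrophage markers summed to 39668 to 42034 in ADSM, 858 to 1595 in ADSF and 904 to 2131 in NDSF, and 12 fibroblast markers to 65.8 to 142 in ADSM, 95679 to 105385 in ADSF and 110438 to 173945 in NDSF. Of 11 macrophage markers tested, 10 were higher in ADSM than in ADSF and than in NDSF, and the remaining marker, the efferocytosis receptor gene Mertk, was lower in ADSM than in NDSF. Among markers of other cells, osteoclast markers summed to 58.1 to 265 in ADSM, 449 to 1307 in ADSF and 607 to 854 in NDSF. Ctsk held the largest part of the fibroblast sums, with 433 to 624 in ADSF and 586 to 803 in NDSF, against 1.87 to 4.15 in ADSM. Acp5, another of these markers, had 32.2 to 214 in ADSM, 9.93 to 251 in ADSF and 7.51 to 16.6 in NDSF. Chondrocyte markers summed to 8.54 to 13.5 in ADSM, 3328 to 6426 in ADSF and 5463 to 9290 in NDSF, and mural cell markers to 0 to 2.56 in ADSM, 686 to 937 in ADSF and 485 to 709 in NDSF. Skeletal muscle markers reached 3.42 to 4.15 in ADSM, 58.5 to 109 in ADSF and 712 to 1604 in NDSF, and endothelial markers 1.04 to 2.80 in ADSM, 50.5 to 60.5 in ADSF and 141 to 384 in NDSF. Neutrophil, T and B cell and mast cell markers reached at most 6.99, 2.98 and 35.0 in any library, with, among others, S100a9, Ngp, Ltf, Elane, Cd3e, Cd3g, Ms4a1, Cpa3, Mcpt4 and Tpsb2 at 0 throughout. The study names female mice, yet 4 Y-linked genes summed to 337 to 469 in ADSM and to 0 in every ADSF and NDSF library, while Xist had a value of at most 3.42 in ADSM, 2721 to 2891 in ADSF and 1872 to 2477 in NDSF. Sex and cell type thus cannot be told apart in the comparisons of ADSM with fibroblasts, which touches the X-linked members Lamp2, Gla and Ids most directly. NDSF library 3 stood apart from NDSF libraries 1 and 2, with a chi-square per degree of freedom over genes of 21.0 and 16.5 against 1.71 between those libraries and 2.33 to 6.50 within ADSM and within ADSF.

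On the TMM scale the summed values of the 36 genes were of similar size in the 3 groups, but the part taken by each role differed. The sum was 32143, 32958 and 29787 in ADSM, 29562, 25903 and 27517 in ADSF, and 36058, 33781 and 22472 in NDSF. ADSM therefore lay just above ADSF without overlap, by a ratio of means of 1.14, and inside the range of NDSF. As a share of all reads on genes the sum was 1.15 to 1.33% in ADSM, 0.806 to 0.925% in ADSF and 0.742 to 1.17% in NDSF, with a ratio of ADSM over ADSF of 1.44. Proteases made up 49.8 to 56.2% of the summed value in ADSM, 38.8 to 40.1% in ADSF and 32.7 to 34.5% in NDSF. Membrane proteins made up 11.9 to 14.0% in ADSM, 21.4 to 22.4% in ADSF and 23.3 to 26.5% in NDSF. Lipid-handling proteins made up 15.0 to 18.1% in ADSM, 22.8 to 24.3% in ADSF and 22.6 to 23.7% in NDSF. In cultures sequenced in bulk, fewer cells of a type and less RNA per cell cannot be told apart.

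**Figure D1:**
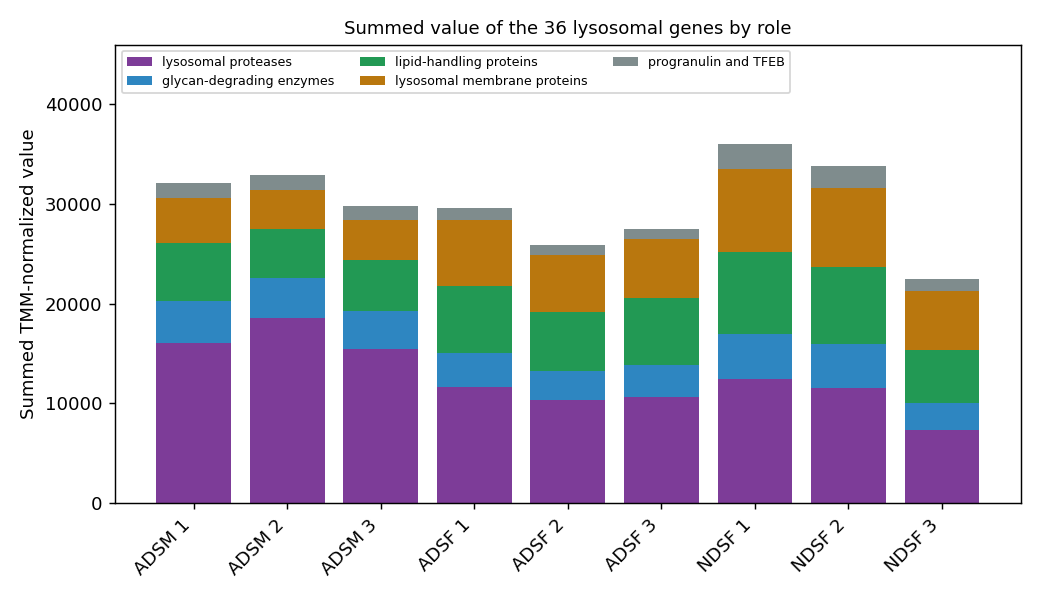
Stacked bars of the summed TMM-normalized value of the 36 lysosomal genes in each of the 9 libraries, coloured by role, with the axis starting at 0. Proteases made up 49.8 to 56.2% of the bar in ADSM, 38.8 to 40.1% in ADSF and 32.7 to 34.5% in NDSF, and the bar of NDSF 3 (22472) is the shortest of the 9.

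Between genes, levels were compared per length of transcript. In ADSM the highest mean FPKM values were those of Ctsd (699), Lamp1 (436), Ctsz (410) and Ctsb (358), and the lowest were those of Ctsh (2.02) and Idua (5.36). In ADSF the highest mean FPKM values were those of Ctsd (831), Cd63 (761), Psap (536) and Lamp1 (480), and the lowest were those of Cln3 (1.28) and Tfeb (2.90). FPKM values of NDSF were not used here, and on the scale of mean TMM-normalized value per kb the highest NDSF levels were those of Cd63 (2089), Psap (1573), Ctsd (1494) and Lamp1 (1264). Ctsd, an aspartic protease, and Lamp1, a glycoprotein of the limiting membrane, thus stood among the 4 highest in each group.

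ADSM were first compared with ADSF, which asks how cell types of arthritic ankles differ in their lysosomal genes. Of the 36 members 15 were higher in ADSM, against 30.1% of all 11889 genes tested, 12 were lower, against 41.0%, and 9 did not pass the threshold (limma, Benjamini-Hochberg adjusted p under 0.05). Members called in either direction were 75.0% of the 36 and 71.1% of all genes, so that the share of called members lay near the background, and for ADSM against NDSF these shares were 66.7% and 75.4%. The median log2 fold change was 0.18 over the members and -0.14 over all genes tested. In the comparison of ADSM with NDSF 13 members were higher, against 32.0% of all genes, 11 were lower, against 43.3%, and the medians were -0.03 over the members and -0.18 over all genes. These comparisons share the ADSM libraries. The 15 genes higher in ADSM than in ADSF included 6 of the 10 proteases and 6 of the 12 glycan-degrading enzymes, and the 12 lower ones 4 of the 6 lipid-handling proteins.

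**Figure D2:**
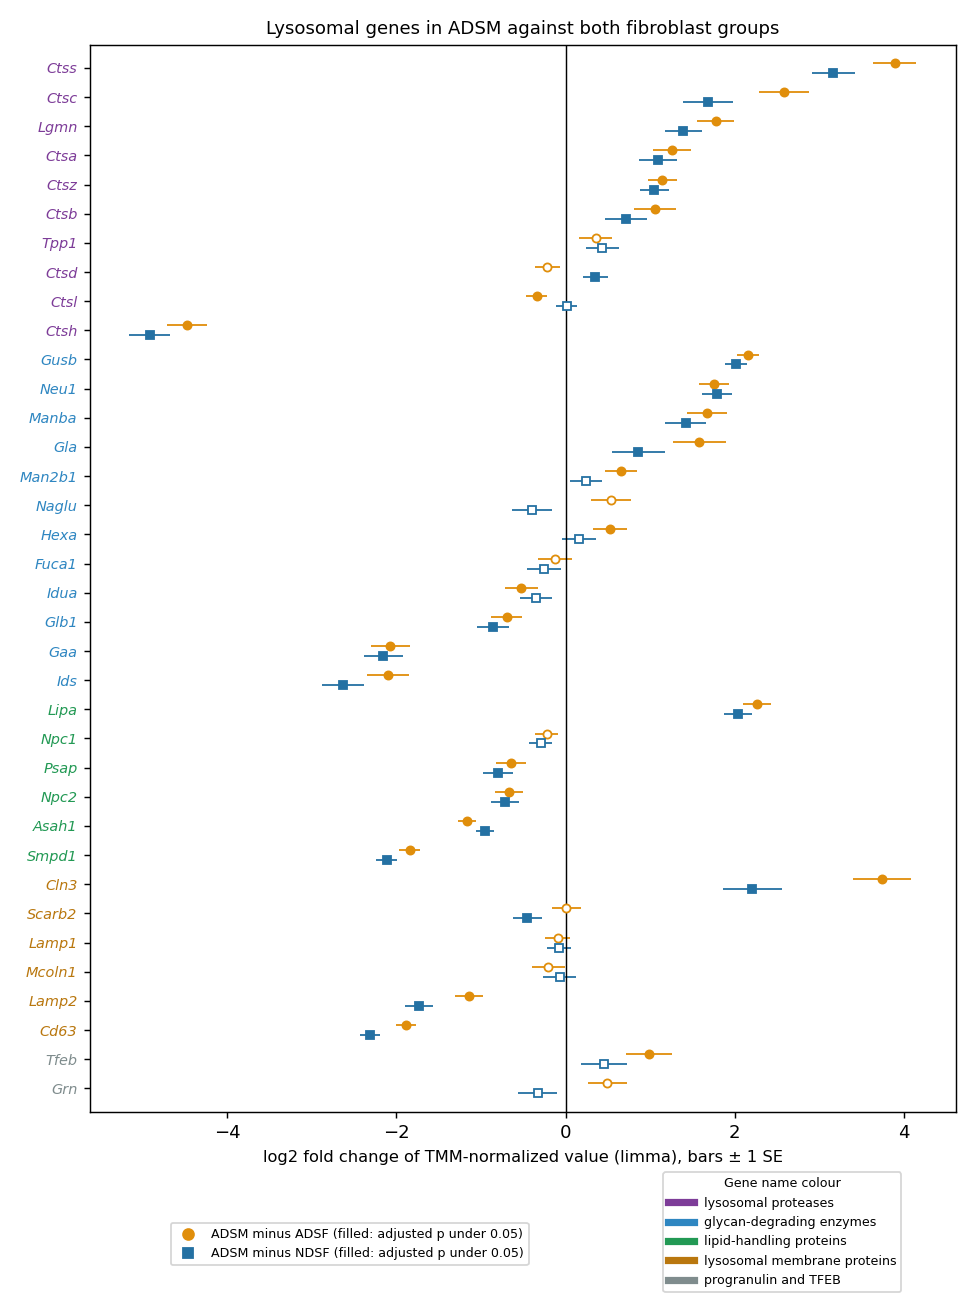
Fitted log2 fold changes of the 36 members, ADSM minus ADSF (circles) and ADSM minus NDSF (squares), with bars of 1 SE and filled symbols where the limma adjusted p was under 0.05, grouped by role. Members lie on either side of 0 in each role with 3 or more members, from -4.47 (Ctsh) to 3.89 (Ctss) against ADSF.

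Among the proteases, Ctss and Ctsh had the largest differences and went in opposite directions. Ctss (mm10 chr3:95526786-95556403), a cysteine protease of antigen-presenting cells that cuts the invariant chain of MHC class II, had values of 1111, 1213 and 1228 in ADSM, 52.6, 94.6 and 98.6 in ADSF, and 178, 131 and 96.7 in NDSF. All 3 ADSM values lay above every fibroblast value, with a log2 fold change of 3.89 ± 0.25 (SE, adjusted p = 1.35e-07) against ADSF and 3.17 ± 0.25 (SE, adjusted p = 6.86e-07) against NDSF. Ctsh (mm10 chr9:90054267-90076095), an aminopeptidase of the same papain-like family, had 11.1, 9.34 and 5.61 in ADSM, 227, 189 and 207 in ADSF, and 326, 317 and 218 in NDSF. It was near the floor in ADSM and clearly present in every fibroblast library, with a log2 fold change of -4.47 ± 0.24 (SE, adjusted p = 2.47e-08) against ADSF and -4.91 ± 0.24 (SE, adjusted p = 1.08e-08) against NDSF. The mean Ctss level was 6.92% of that in ADSM for ADSF and 11.4% for NDSF. Beside this, 10 macrophage markers with a mean of at least 100 in ADSM had mean levels in ADSF of 0.296 to 12.9% of those in ADSM (median 2.36%). In NDSF these levels were 0.280 to 23.4% (median 4.09%). The part of residual macrophages in the fibroblast values of macrophage-rich genes was not tested.

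Ctsc, the protease that activates serine proteases of granules, had 127, 256 and 186 in ADSM, 26.8, 28.6 and 33.7 in ADSF, and 69.9, 68.9 and 36.6 in NDSF. Its log2 fold change was positive at 2.59 ± 0.29 (SE, adjusted p = 1.36e-05) against ADSF and 1.68 ± 0.29 (SE, adjusted p = 0.00034) against NDSF. Lgmn, the asparaginyl endopeptidase legumain that matures cathepsins, had 1677, 1479 and 1479 in ADSM, 521, 411 and 428 in ADSF, and 783, 664 and 388 in NDSF. Its log2 fold change was 1.77 ± 0.22 (SE, adjusted p = 2.48e-05) against ADSF and 1.39 ± 0.22 (SE, adjusted p = 0.000144) against NDSF, and neither fibroblast group overlapped ADSM. Ctsz, a carboxypeptidase, had 1312, 1767 and 1395 in ADSM, 739, 632 and 638 in ADSF, and 846, 797 and 542 in NDSF. It rose in ADSM by 1.14 ± 0.17 (SE, adjusted p = 0.000129) on the log2 scale against ADSF and by 1.05 ± 0.17 (SE, adjusted p = 0.000222) against NDSF.

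Ctsb, an abundant cysteine protease with exo- and endopeptidase activity, had 4232, 6008 and 4212 in ADSM, 2495, 2074 and 2314 in ADSF, and 3779.7, 3517 and 1842 in NDSF. ADSM library 2 was the highest, and the log2 fold change was 1.05 ± 0.25 (SE, adjusted p = 0.0029) against ADSF and 0.71 ± 0.25 (SE, adjusted p = 0.023) against NDSF. The difference from NDSF was not called without ADSM library 2, where the adjusted p was 0.0925, and Ctsb shares 774 exon bases with Fdft1 on the opposite strand, with values of 199 to 283 for that gene. Ctsa, which protects beta-galactosidase and neuraminidase in a complex, had 2104, 1788 and 1953 in ADSM, 940.0, 787 and 732 in ADSF, and 1179, 1088 and 586 in NDSF. Its log2 fold change was 1.25 ± 0.23 (SE, adjusted p = 0.000461) against ADSF and 1.10 ± 0.23 (SE, adjusted p = 0.00106) against NDSF.

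The remaining proteases had smaller differences. Ctsd (mm10 chr7:142375916-142387870), the most abundant member by summed value, had 3585, 4154 and 3342 in ADSM, 4492, 4205 and 4123 in ADSF, and 3331, 3123 and 2302 in NDSF. ADSM overlapped ADSF and lay just above NDSF, with a log2 fold change of -0.22 ± 0.15 (SE, adjusted p = 0.21) against ADSF and 0.35 ± 0.15 (SE, adjusted p = 0.0489) against NDSF. The difference from NDSF passed the threshold by a small margin, and the adjusted p over 20 alternative settings lay between 0.00269 and 0.152. Ctsl, an endopeptidase of wide expression, had 1356, 1384 and 1304 in ADSM, 1719, 1629 and 1767 in ADSF, and 1534, 1420.4 and 1094 in NDSF. It fell in ADSM by 0.34 ± 0.12 on the log2 scale (SE, adjusted p = 0.0292) against ADSF and had 0.01 ± 0.12 (SE, adjusted p = 0.933) against NDSF as its log2 fold change. The call against ADSF was lost without each of ADSM libraries 1 and 3 and ADSF libraries 1 and 3 (adjusted p 0.0617 to 0.0875) and with equal library totals (adjusted p 0.952). Tpp1, a tripeptidyl peptidase, had 499.7, 477 and 406 in ADSM, 391, 339 and 349 in ADSF, and 421, 397 and 235 in NDSF. It did not pass in either comparison, with 0.36 ± 0.20 (SE, adjusted p = 0.126) against ADSF and 0.43 ± 0.20 (SE, adjusted p = 0.0653) against NDSF. The adjusted p of Tpp1 lay between 0.00789 and 0.278 against ADSF over 21 alternatives, and between 0.00657 and 0.205 against NDSF over 20. Without NDSF library 3 these values were 0.00923 and 0.205.

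**Figure D3:**
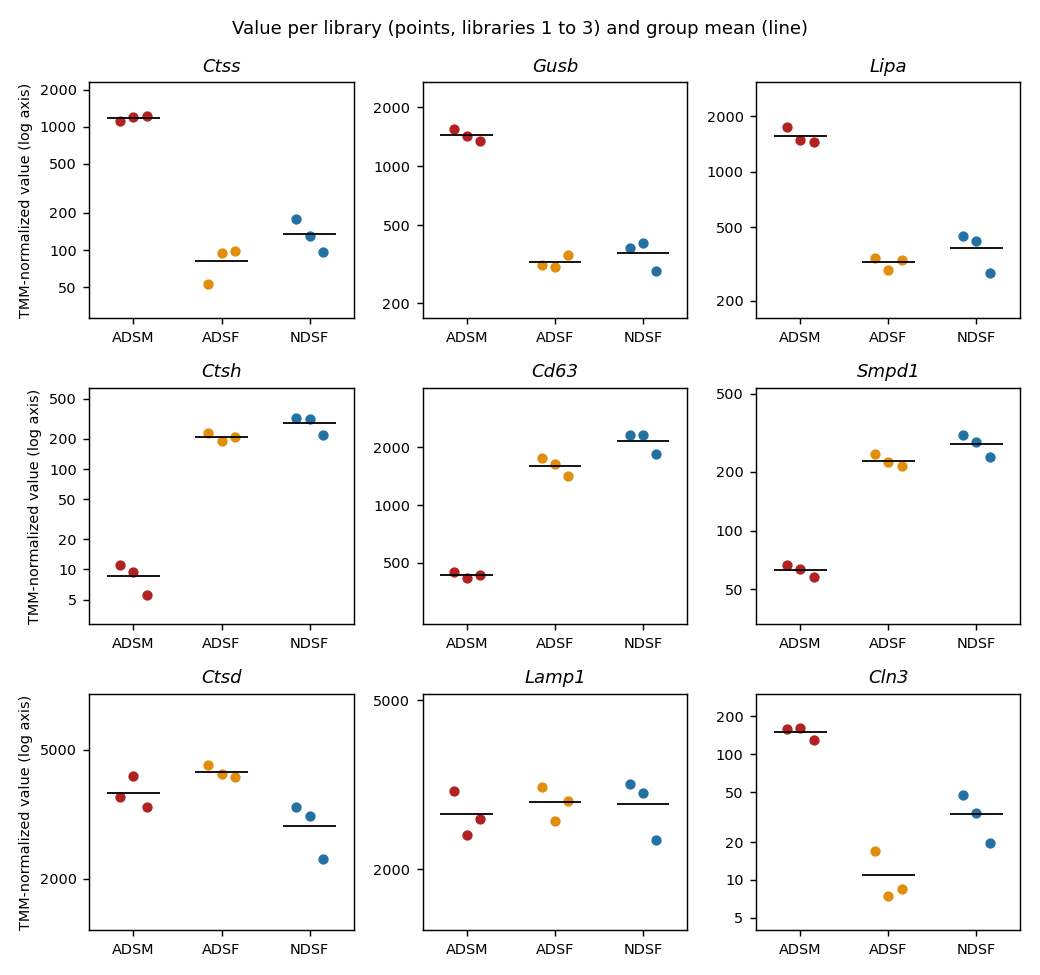
TMM-normalized values of 9 members in each library on a logarithmic axis, with ADSM, ADSF and NDSF from left to right and a line at each group mean. Ctss, Gusb, Lipa and Cln3 were higher in every ADSM library than in any fibroblast library, Ctsh, Cd63 and Smpd1 were lower, and ADSM overlapped both fibroblast groups for Lamp1.

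Enzymes that degrade glycans were divided between the cell types. Gusb (mm10 chr5:129989021-130002828), beta-glucuronidase, removes glucuronic acid from glycosaminoglycans and had 1546, 1425 and 1355 in ADSM, 313, 306 and 352 in ADSF, and 382, 404 and 292 in NDSF. The ADSM mean was 1442 ± 96.6 and the ADSF mean 324 ± 24.9 (SD, n = 3 each), with a log2 fold change of 2.15 ± 0.13 (SE, adjusted p = 6.90e-08) against ADSF and 2.01 ± 0.13 (SE, adjusted p = 1.11e-07) against NDSF. Neu1, the sialidase of the lysosome, had 161, 179.6 and 149.5 in ADSM, 49.6, 47.3 and 45.7 in ADSF, and 58.9, 44.9 and 37.5 in NDSF. It was higher in every ADSM library, by a log2 fold change of 1.76 ± 0.18 (SE, adjusted p = 5.26e-06) against ADSF and 1.79 ± 0.18 (SE, adjusted p = 4.08e-06) against NDSF. Manba, a beta-mannosidase, had 255, 221 and 241 in ADSM, 80.4, 61.0 and 82.9 in ADSF, and 110.4, 109.9 and 57.3 in NDSF. It rose by 1.67 ± 0.24 (SE, adjusted p = 8.06e-05) against ADSF and 1.42 ± 0.24 (SE, adjusted p = 0.00025) against NDSF on the log2 scale. Gla, alpha-galactosidase A on the X chromosome, had 109, 136 and 89.7 in ADSM, 44.7, 27.4 and 38.5 in ADSF, and 85.6, 70.9 and 35.7 in NDSF. It was higher by a log2 fold change of 1.58 ± 0.31 (SE, adjusted p = 0.000929) against ADSF and 0.86 ± 0.31 (SE, adjusted p = 0.0274) against NDSF, and the call against NDSF was lost without ADSM library 1 or 2 or NDSF library 3 (adjusted p 0.0616 to 0.0987).

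Man2b1, an alpha-mannosidase, had 441, 392 and 394 in ADSM, 283, 228 and 270.5 in ADSF, and 429.8, 392 and 246 in NDSF. ADSM exceeded ADSF by 0.65 ± 0.19 (SE, adjusted p = 0.00887), whereas Man2b1 was not called against NDSF, with 0.24 ± 0.19 (SE, adjusted p = 0.262). Hexa, the alpha subunit of beta-hexosaminidase, had 805, 783 and 654 in ADSM, 514, 508 and 528 in ADSF, and 838, 789 and 448 in NDSF. It was called against ADSF with a log2 fold change of 0.53 ± 0.20 (SE, adjusted p = 0.0371) and not against NDSF with 0.16 ± 0.20 (SE, adjusted p = 0.49). The call of Hexa against ADSF was lost without ADSM library 1 or 2 or any ADSF library (adjusted p 0.0731 to 0.107).

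On the other side, Ids and Gaa were lower in ADSM. Ids, the X-linked iduronate sulfatase of heparan and dermatan sulfate, had 81.2, 87.2 and 62.6 in ADSM, 467, 251 and 303 in ADSF, and 514, 600.3 and 353 in NDSF. All ADSM values lay under every fibroblast value, and the log2 fold change was -2.09 ± 0.25 (SE, adjusted p = 1.89e-05) against ADSF and -2.63 ± 0.25 (SE, adjusted p = 2.66e-06) against NDSF. Gaa, the acid glucosidase that degrades glycogen, had 185, 254 and 178 in ADSM, 963, 763 and 852 in ADSF, and 1147, 1065 and 607 in NDSF. Its log2 fold change was -2.07 ± 0.23 (SE, adjusted p = 1.00e-05) against ADSF and -2.15 ± 0.23 (SE, adjusted p = 6.65e-06) against NDSF. Glb1, beta-galactosidase, had 176, 138 and 169 in ADSM, 289.8, 224 and 270.5 in ADSF, and 341, 334 and 216 in NDSF. Lower in ADSM too, it had a log2 fold change of -0.69 ± 0.19 (SE, adjusted p = 0.00604) against ADSF and -0.86 ± 0.19 (SE, adjusted p = 0.00151) against NDSF, it shares 151 exon bases with Tmppe on the same strand, and the call against ADSF was lost with equal library totals (adjusted p 0.0805).

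Idua, the iduronidase that acts next to Ids in heparan and dermatan sulfate breakdown, had 61.5, 51.9 and 48.6 in ADSM, 77.4, 79.7 and 75.7 in ADSF, and 76.4, 81.9 and 51.6 in NDSF. It was lower in ADSM than in ADSF, with a log2 fold change of -0.52 ± 0.19 (SE, adjusted p = 0.0305), and was not called against NDSF, with -0.35 ± 0.19 (SE, adjusted p = 0.122). The call against ADSF was lost without ADSM library 2 or 3 or any ADSF library (adjusted p 0.0603 to 0.0978) and with equal library totals (adjusted p 0.351). Naglu, an N-acetylglucosaminidase of heparan sulfate, had 144, 142 and 123 in ADSM, 94.3, 95.8 and 90.2 in ADSF, and 216, 237 and 113 in NDSF. ADSM lay between the fibroblast groups in mean, and Naglu was not called in either comparison, with 0.54 ± 0.24 (SE, adjusted p = 0.0607) against ADSF and -0.40 ± 0.24 (SE, adjusted p = 0.147) against NDSF. Over 21 alternatives the adjusted p of Naglu against ADSF lay between 0.00115 and 0.138. Without NDSF library 3 Naglu was called higher against ADSF (adjusted p 0.00115) and lower against NDSF (adjusted p 0.000286). Fuca1, a fucosidase, had 297, 211 and 261 in ADSM, 306, 244 and 281 in ADSF, and 356, 358 and 217 in NDSF. Its values overlapped in all groups, with -0.12 ± 0.20 (SE, adjusted p = 0.607) against ADSF and -0.25 ± 0.20 (SE, adjusted p = 0.273) against NDSF.

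Of the lipid-handling proteins, Lipa alone was higher in ADSM, and 4 of the other 5 were lower than in ADSF and than in NDSF. Lipa (mm10 chr19:34492316-34527474), the acid lipase of cholesteryl esters and triglycerides, had 1738, 1489 and 1438 in ADSM, 341, 293 and 334 in ADSF, and 448, 423 and 283 in NDSF. The log2 fold change was 2.26 ± 0.16 (SE, adjusted p = 3.37e-07) against ADSF and 2.04 ± 0.16 (SE, adjusted p = 7.56e-07) against NDSF, without overlap. Smpd1, acid sphingomyelinase, had 66.6, 63.3 and 57.9 in ADSM, 246, 223 and 213 in ADSF, and 306, 282 and 238 in NDSF. Each ADSM value lay under every fibroblast value, with a log2 fold change of -1.84 ± 0.13 (SE, adjusted p = 2.28e-07) against ADSF and -2.11 ± 0.13 (SE, adjusted p = 6.72e-08) against NDSF. Asah1, acid ceramidase, which takes up the ceramide that sphingomyelinase releases, had 297, 357 and 322 in ADSM, 751, 669.6 and 771 in ADSF, and 638, 672 and 582 in NDSF. Its log2 fold change was -1.16 ± 0.11 (SE, adjusted p = 2.19e-06) against ADSF and -0.95 ± 0.11 (SE, adjusted p = 1.04e-05) against NDSF.

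Psap, the precursor of the saposins that present sphingolipids to their hydrolases, had 2655, 2229 and 2354 in ADSM, 4014, 3415 and 3861 in ADSF, and 5088, 4752 and 3055 in NDSF. It was among the most abundant members in all groups and was lower in ADSM, with a log2 fold change of -0.64 ± 0.18 (SE, adjusted p = 0.00759) against ADSF and -0.80 ± 0.18 (SE, adjusted p = 0.00179) against NDSF. Npc2, which hands cholesterol to Npc1, had 859, 597 and 789 in ADSM, 1167, 1088 and 1271 in ADSF, and 1404, 1295 and 977 in NDSF. Its log2 fold change was -0.66 ± 0.16 (SE, adjusted p = 0.00373) against ADSF and -0.71 ± 0.16 (SE, adjusted p = 0.00223) against NDSF. With equal library totals the calls against ADSF were lost for Psap (adjusted p 0.114) and Npc2 (adjusted p 0.0628). Npc1, the membrane exporter of cholesterol, had 197, 199 and 180.4 in ADSM, 216, 227 and 231 in ADSF, and 269.6, 254 and 191 in NDSF. It was not called, with -0.22 ± 0.13 (SE, adjusted p = 0.157) against ADSF and -0.29 ± 0.13 (SE, adjusted p = 0.07) against NDSF.

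The membrane proteins had no common direction. Cln3 (mm10 chr7:126571400-126584280), a membrane protein mutated in juvenile Batten disease in humans, had 159.7, 161 and 129.9 in ADSM, 16.9, 7.47 and 8.41 in ADSF, and 46.9, 34.0 and 19.7 in NDSF. It was the member with the smallest mean in ADSF, and the log2 fold change was 3.74 ± 0.35 (SE, adjusted p = 2.44e-06) against ADSF and 2.21 ± 0.35 (SE, adjusted p = 0.000152) against NDSF. Since 1 read is worth about 1, the ADSF values rest on few reads per library. Cd63 (mm10 chr10:128908919-128912818), a tetraspanin of late endosomes and exosomes, had 449, 418 and 429.9 in ADSM, 1756, 1645 and 1414 in ADSF, and 2331, 2305 and 1837 in NDSF. All ADSM values lay far under the fibroblast values, with a log2 fold change of -1.88 ± 0.12 (SE, adjusted p = 1.15e-07) against ADSF and -2.31 ± 0.12 (SE, adjusted p = 2.03e-08) against NDSF. Lamp2, the X-linked glycoprotein that also serves chaperone-mediated autophagy, had 546, 660.1 and 626 in ADSM, 1441, 1285 and 1307 in ADSF, and 2470.1, 2213 and 1518 in NDSF. The ADSM values were again the lowest, with a log2 fold change of -1.14 ± 0.16 (SE, adjusted p = 8.77e-05) against ADSF and -1.73 ± 0.16 (SE, adjusted p = 2.71e-06) against NDSF.

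Lamp1 (mm10 chr8:13159135-13175338), the glycoprotein most often used to mark lysosomes, had 3066, 2408 and 2625 in ADSM, 3132, 2603 and 2891 in ADSF, and 3181, 3030.5 and 2339.9 in NDSF. The 3 groups overlapped, and neither difference passed, with -0.09 ± 0.14 (SE, adjusted p = 0.572) against ADSF and -0.07 ± 0.14 (SE, adjusted p = 0.654) against NDSF. Scarb2, the receptor that brings glucocerebrosidase to the lysosome, had 171, 147 and 162 in ADSM, 164, 157 and 155 in ADSF, and 271, 238 and 162 in NDSF. It was not called against ADSF, with 0.01 ± 0.17 (SE, adjusted p = 0.958), and was called lower against NDSF, with -0.45 ± 0.17 (SE, adjusted p = 0.032), although NDSF library 3 lay inside the ADSM range. Over 20 alternatives the adjusted p of the difference from NDSF lay between 0.000349 and 0.322, and the call was lost without ADSM library 2 or 3 and without NDSF library 1 or 2 (adjusted p 0.0658 to 0.135). Mcoln1, the calcium channel mucolipin 1 that acts upstream of TFEB, had 93.1, 116 and 72.0 in ADSM, 97.3, 105 and 118 in ADSF, and 113, 99.9 and 79.8 in NDSF. It was not called, with -0.20 ± 0.20 (SE, adjusted p = 0.363) against ADSF and -0.07 ± 0.20 (SE, adjusted p = 0.755) against NDSF.

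Grn, which is cut to granulins in the lysosome, had 1529, 1516 and 1333 in ADSM, 1119, 939.7 and 1049 in ADSF, and 2454, 2149.5 and 1158 in NDSF. It was higher in all ADSM than in all ADSF libraries without passing the threshold, with a log2 fold change of 0.50 ± 0.23 (SE, adjusted p = 0.073), and had -0.33 ± 0.23 (SE, adjusted p = 0.212) against NDSF. Over 21 alternatives the adjusted p of Grn against ADSF lay between 0.000975 and 0.182. Without NDSF library 3 Grn was called higher against ADSF (adjusted p 0.000975) and lower against NDSF (adjusted p 0.000281). Tfeb was the member with the smallest summed value, at 39.3, 38.4 and 29.0 in ADSM, 13.9, 23.6 and 15.6 in ADSF, and 33.1, 25.0 and 19.7 in NDSF. It was higher in ADSM than in ADSF by 0.99 ± 0.27 (SE, adjusted p = 0.00753) and was not called against NDSF, with 0.46 ± 0.27 (SE, adjusted p = 0.15). Its relatives in the same family are given with the other lysosomal pathways.

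Fibroblasts of arthritic ankles were then compared with fibroblasts of normal ankles. Of the 36 members 1 was higher in ADSF, against 9.88% of all genes tested, and 5 were lower, against 11.3% (either direction 16.7% of the members and 21.2% of all genes). The median log2 fold change was -0.24 over the members and -0.01 over all genes. The called members were Ctsd, with 0.57 ± 0.15 (SE, adjusted p = 0.0228), which was higher in ADSF, and Cln3, Naglu, Grn, Lamp2 and Cd63, which were lower. Their log2 fold changes were -1.54 ± 0.35 (SE, adjusted p = 0.0129) for Cln3, -0.93 ± 0.24 (SE, adjusted p = 0.0202) for Naglu and -0.82 ± 0.23 (SE, adjusted p = 0.0297) for Grn. Those of the abundant membrane proteins were -0.59 ± 0.16 (SE, adjusted p = 0.0293) for Lamp2 and -0.42 ± 0.12 (SE, adjusted p = 0.032) for Cd63. No ADSF value of these 6 members reached into the NDSF range, and relative to its level the closest approach was that of Grn, at 1119 in ADSF library 1 against 1158 in NDSF library 3. The same held for Ctsc and Ctsl, which were not called (adjusted p 0.0521 and 0.0664). The share of all genes without such overlap was not counted, so that this is a description of the called values. Each of these calls was lost when the model held only these groups (adjusted p 0.0527 to 0.0818). In that fit 0 members passed limma in either direction, against 1006 lower and 748 higher of all 11889 genes. At an unadjusted p under 0.05, 8 members were lower and 2 higher. On the recovered reads of all libraries edgeR called 5 members lower and 1 higher, against 1410 and 1155 of all 11889 genes. DESeq2 called 7 lower and 1 higher, against 1352 and 1088 of all genes. Without ADSF library 2, ADSF library 3, NDSF library 1 or NDSF library 2, limma called 0 members lower, against 735, 765, 637 and 562 of all genes. At an unadjusted p under 0.05 these fits held 7 to 9 (ADSF) or 6 to 7 (NDSF) lower members. The shares of all genes at an unadjusted p were not counted, so that the unadjusted counts have no background to be read against.

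NDSF library 3 stood apart for the members as well. All 36 members were lower in NDSF library 3 than in NDSF libraries 1 and 2, as were 42.8% of all genes tested. The member values in library 3 were 45.6 to 88.8% (median 63.9%) of the mean of libraries 1 and 2. The members Cln3, Gla and Naglu had 48.7%, 45.6% and 49.7%, and Asah1 had 88.8%. Fibroblast markers summed to 110438 in NDSF library 3, against 172768 and 173945 in NDSF libraries 1 and 2, and macrophage markers to 904 against 2119 and 2131. Skeletal muscle markers summed to 712 against 1604 and 1287, and endothelial markers to 141 against 384 and 287. Mural cell markers went the other way, with 709 in NDSF library 3 against 541 and 485. The part of these marker differences in the lower member values was not tested. Without this library 20 members were lower in ADSF, against 17.5% of all genes, and 1 was higher, against 18.2%, with a median log2 fold change of -0.45 over the members and -0.02 over all genes. As all 36 members were lowest in library 3 within NDSF, leaving it out had to move every member down. The direction of this shift was thus fixed in advance, and these counts are a description.

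The 20 members lower in ADSF without NDSF library 3 were spread over all roles. They were the 5 proteases Ctsa, Ctsb, Ctsc, Ctss and Lgmn, the 7 glycan-degrading enzymes Hexa, Gla, Gusb, Naglu, Ids, Manba and Man2b1, the lipid-handling Psap, Lipa and Smpd1, the membrane proteins Lamp2, Cd63, Scarb2 and Cln3, and Grn. Their log2 fold changes lay between -1.86 (Cln3, adjusted p = 0.00169) and -0.28 (Gusb, adjusted p = 0.0493), and Ctsd remained the 1 member higher, with 0.40 (adjusted p = 0.0174). Over the same 8 libraries, 18 members were higher in ADSM than in ADSF, against 32.3% of all genes, 13 were lower, against 42.5%, and in the comparison with NDSF 11 were higher, against 32.8%, and 16 lower, against 43.7%. Against NDSF the share of lower members thus lay near that of all genes, and the median log2 fold change was -0.17 over the members and -0.20 over all genes. Macrophage markers summed to 858 to 1595 in ADSF and to 2119 and 2131 in NDSF libraries 1 and 2. With all 9 libraries, 4 of 11 macrophage markers tested were lower in ADSF than in NDSF and 0 higher, against 11.3% and 9.88% of all genes. Their part in the lower member values was not tested.

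**Figure D4:**
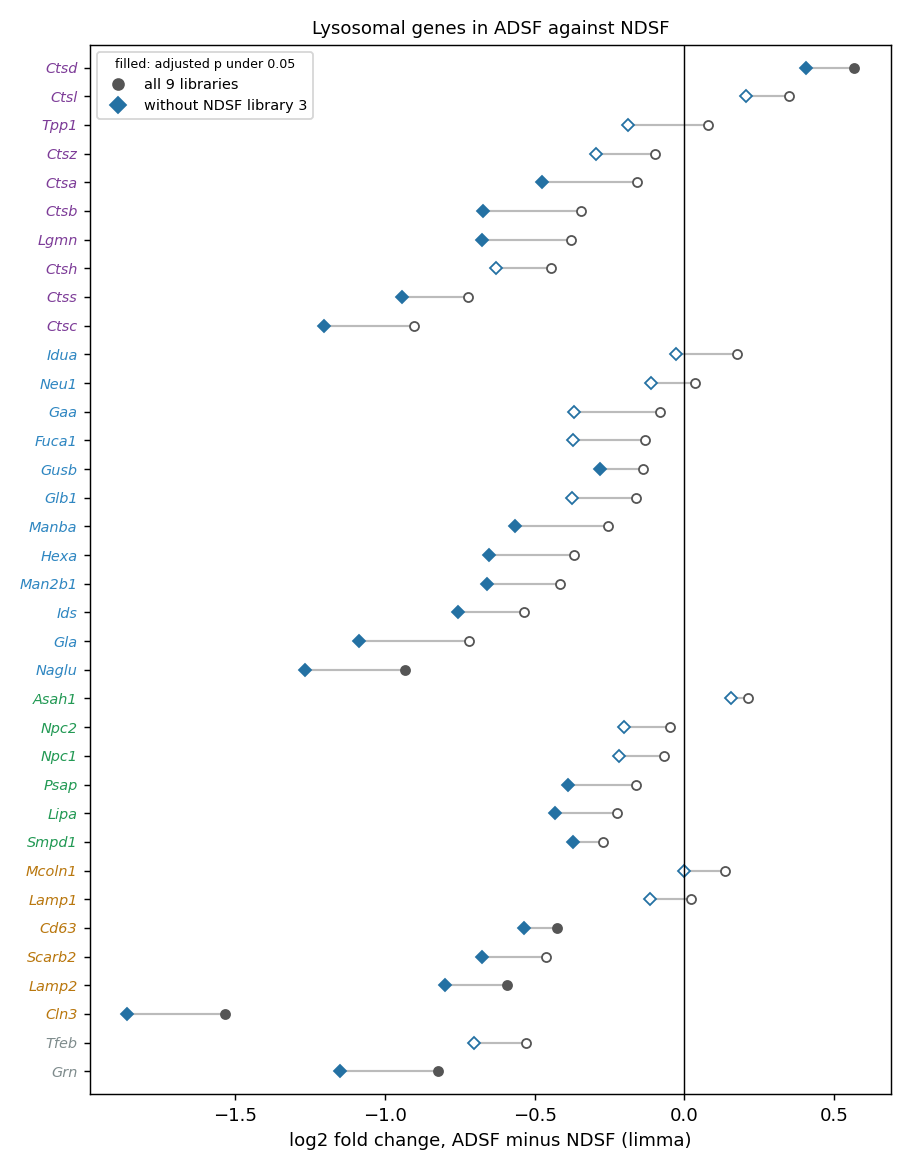
Fitted log2 fold changes of the 36 members, ADSF minus NDSF, with all 9 libraries (circles) and without NDSF library 3 (diamonds), joined by a line for each gene and filled where the limma adjusted p was under 0.05. Every diamond lies left of its circle, which was fixed in advance, since all 36 members were lowest in NDSF library 3 within NDSF. Filled symbols are 6 circles and 21 diamonds, and Ctsd is the filled member on the right of 0.

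Beside the 36 members, 7 lists of other lysosomal genes were counted in the same model. Of all genes tested 30.1% were higher and 41.0% lower in ADSM than in ADSF, and 32.0% higher and 43.3% lower than in NDSF. In ADSF against NDSF 9.88% of all genes were higher and 11.3% lower, and without NDSF library 3 these shares were 18.2% and 17.5%. In these lists Tfec and Cst7 reached the filter value in ADSM libraries alone, and Ctsk, Laptm4b and Map1lc3a in fibroblast libraries alone, so that the filter tied their direction. The counts that hold them are a description. Of 18 subunit genes of the V-ATPase, the proton pump, 10 (55.6%) were higher and 2 (11.1%) lower in ADSM than in ADSF, and the same numbers were higher and lower than in NDSF. The subunit genes with the smallest adjusted p against ADSF were Atp6v0b, with 1.74 ± 0.12 (SE, adjusted p = 1.89e-07), Atp6v1c1, with 1.45 ± 0.10 (SE, adjusted p = 2.46e-07), and Atp6v1a, with 1.52 ± 0.13 (SE, adjusted p = 1.49e-06) as log2 fold change. Atp6v0b had 536, 501 and 507 in ADSM, 145, 179 and 139 in ADSF, and 181, 159.8 and 176 in NDSF, so that ADSM did not overlap the fibroblast groups. Atp6ap1, an accessory protein of the pump, and Atp6v0a1 were lower, with -0.65 ± 0.09 (SE, adjusted p = 8.97e-05) and -0.83 ± 0.16 (SE, adjusted p = 0.000854). In ADSF against NDSF 2 of the 18 (11.1%) were called higher, near the 9.88% of all genes, and 0 lower. They were Atp6ap1 and Atp6v0a2, with 0.35 ± 0.09 (SE, adjusted p = 0.0249) and 0.46 ± 0.13 (SE, adjusted p = 0.0313). Over 20 alternatives 0 to 2 were called higher and 0 to 3 lower. None was higher without ADSF library 1, without ADSF library 3, without NDSF library 1 and without NDSF library 2, and 3 were lower without NDSF library 3.

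Of 23 other lysosomal hydrolases tested, 3 (13.0%) were higher and 10 (43.5%) lower in ADSM than in ADSF, against 30.1% and 41.0% of all genes. Compared with NDSF 4 (17.4%) were higher and 12 (52.2%) lower, against 32.0% and 43.3%. Dnase2a, the acid DNase that digests the DNA of engulfed cells, had 420.3, 365 and 404 in ADSM, 58.6, 37.3 and 44.5 in ADSF, and 90.2, 68.9 and 43.2 in NDSF. ADSM did not overlap the fibroblasts, with 3.08 ± 0.25 (SE, adjusted p = 7.95e-07) against ADSF, followed by Ppt1, a thioesterase, with 1.35 ± 0.19 (SE, adjusted p = 8.49e-05), and Arsb with 0.63 ± 0.23 (SE, adjusted p = 0.0302). Ctsk, the collagen-cutting cathepsin best known from osteoclasts, had 2.56, 4.15 and 1.87 in ADSM, 433, 624 and 445 in ADSF, and 803, 793 and 586 in NDSF. It was near the floor in ADSM, with a log2 fold change of -7.04 against ADSF. Its p-value is left out, since the filter tied its direction. The sulfatase gene Arsa and the phospholipase gene Pla2g15 followed, with -2.09 ± 0.20 (SE, adjusted p = 3.86e-06) and -1.60 ± 0.17 (SE, adjusted p = 7.04e-06). Of the osteoclast markers, Acp5 was at 9.93, 251 and 16.8 and Atp6v0d2 at 1.99, 54.8 and 0 in ADSF libraries 1, 2 and 3, so that ADSF library 2 was the highest for both. Acp5 had 214, 32.2 and 152 in ADSM and 16.6, 13.0 and 7.51 in NDSF, and Atp6v0d2 35.9, 12.5 and 27.1 and 19.3, 15.0 and 4.69. Acp5 was called higher in ADSM than in NDSF (limma adjusted p = 0.0213) but not than in ADSF (adjusted p = 0.217). Atp6v0d2 was called in neither comparison (adjusted p 0.466 and 0.126). In ADSF against NDSF 3 of the 23 (13.0%) were called lower, near the 11.3% of all genes, and 0 higher. They included Ctso and Gm2a, with -0.81 ± 0.24 (SE, adjusted p = 0.0344) and -1.11 ± 0.36 (SE, adjusted p = 0.0484). Over 20 alternatives the count of lower genes was 0 to 10. It was 0 without ADSF library 2, without ADSF library 3, without NDSF library 1 and without NDSF library 2, and 10 without NDSF library 3.

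Of 20 other lysosomal membrane proteins tested, 9 were higher and 7 lower in ADSM than in ADSF, against 30.1% and 41.0% of all genes. In the comparison with NDSF 8 were higher and 8 lower, against 32.0% and 43.3%. Laptm5, a protein of blood-derived cells, had 2577, 2606 and 2216 in ADSM, 45.7, 66.0 and 74.5 in ADSF, and 110.4, 94.9 and 58.2 in NDSF. Its relative Laptm4b had no read in the 3 ADSM libraries and 83.4, 80.9 and 103 in ADSF and 104, 98.9 and 110 in NDSF. Laptm4a, of wide expression, had 412, 385 and 398 in ADSM, 1799, 1453 and 1793 in ADSF, and 2391, 2206 and 1784 in NDSF. These relatives thus went in opposite directions, Laptm5 with 5.32 ± 0.24 (SE, adjusted p = 5.66e-09) and Laptm4a with -2.07 ± 0.13 (SE, adjusted p = 8.81e-08) against ADSF. Cd68, a glycoprotein of the LAMP family that also served as a macrophage marker here, had a log2 fold change of 5.14 ± 0.40 (SE, adjusted p = 6.14e-07) against ADSF.

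Of 14 genes for mannose 6-phosphate tagging and sorting, 7 were higher and 4 (28.6%) lower in ADSM than in ADSF, against 30.1% and 41.0% of all genes. Against NDSF 5 (35.7%) were higher and 2 (14.3%) lower in ADSM, against 32.0% and 43.3%. Nagpa, the enzyme that uncovers the tag, had 242, 268 and 253 in ADSM, 84.4, 66.0 and 68.5 in ADSF, and 85.6, 95.9 and 64.8 in NDSF. The sorting receptor gene Sort1 and the adaptor gene Gga3 were also higher, with 1.71 ± 0.27 (SE, adjusted p = 0.00017) and 0.97 ± 0.16 (SE, adjusted p = 0.000275), and the log2 fold change of Nagpa was 1.79 ± 0.16 (SE, adjusted p = 2.26e-06). The receptors for the tag differed in direction, as M6pr, the smaller, cation-dependent receptor, had 0.82 ± 0.15 (SE, adjusted p = 0.000478) and Igf2r, the larger receptor, -1.01 ± 0.23 (SE, adjusted p = 0.00257) against ADSF. Lrp1, which also takes up lysosomal enzymes, had -1.92 ± 0.25 (SE, adjusted p = 4.08e-05) as log2 fold change, and Sumf1, which activates sulfatases, -0.59 ± 0.15 (SE, adjusted p = 0.00415). In ADSF against NDSF, 2 (14.3%) were higher, Gnptab and M6pr, and 3 (21.4%) lower, Gga2, Sort1 and Vps26a. These shares stood against 9.88% and 11.3% of all genes. Over 20 alternatives the counts were 0 to 2 higher and 1 to 3 lower.

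Of 16 factors related to TFEB and their regulators at the lysosome, 9 (56.2%) were higher and 2 (12.5%) lower in ADSM than in ADSF, against 30.1% and 41.0% of all genes. Set against NDSF 9 were higher and 3 (18.8%) lower, against 32.0% and 43.3%. Mitf had 182, 168 and 192 in ADSM, 46.7, 32.4 and 44.5 in ADSF, and 170.3, 151 and 62.9 in NDSF. It was higher in ADSM than in ADSF by 2.12 ± 0.32 (SE, adjusted p = 0.000116) and was lower in ADSF than in NDSF, with -1.51 ± 0.32 (SE, adjusted p = 0.00956). That was the 1 call of this list in ADSF against NDSF (6.25% lower, against 11.3% of all genes). Its relative Tfe3 was higher as well, with 0.54 ± 0.12 (SE, adjusted p = 0.0022) against ADSF. Tfec, which is best known from macrophages and osteoclasts, had 17.9, 31.1 and 24.3 in ADSM, at most 3.73 in ADSF and at most 5.52 in NDSF. Among the genes called higher, those with the smallest adjusted p were Lamtor5 and Lamtor2, parts of the complex that anchors mTORC1, with 1.38 ± 0.13 (SE, adjusted p = 3.30e-06) and 1.40 ± 0.16 (SE, adjusted p = 1.58e-05), and Fnip2, a partner of folliculin, with 2.31 ± 0.28 (SE, adjusted p = 2.48e-05). Rraga and Fnip1 were lower, with -1.13 ± 0.11 (SE, adjusted p = 3.61e-06) and -0.59 ± 0.21 (SE, adjusted p = 0.0264).

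Of 7 inhibitors of cathepsins 3 passed the filter, Cst3, Cstb and Cst7. Cst3 and Cstb were higher in ADSM than in ADSF, and Cstb was also higher than in NDSF. Cst3, the secreted cystatin C, had 2981, 2236 and 2674 in ADSM, 765, 546 and 584 in ADSF, and 2625, 2396 and 1773 in NDSF. ADSM and NDSF overlapped while ADSF lay well below both, with 2.06 ± 0.18 (SE, adjusted p = 1.31e-06) for ADSM against ADSF and -1.84 ± 0.18 (SE, adjusted p = 0.0002) for ADSF against NDSF. Cst7, cystatin F, which acts inside the endolysosomal system of immune cells, had 144, 55.0 and 103 in ADSM and no read in any fibroblast library. Cstb, a cytosolic inhibitor, had 1.01 ± 0.12 (SE, adjusted p = 1.38e-05) against ADSF. Of 16 autophagy genes 5 (31.2%) were higher and 7 (43.8%) lower in ADSM than in ADSF, near the 30.1% and 41.0% of all genes. The same numbers were higher and lower than in NDSF, near the 32.0% and 43.3% of all genes. Wipi1, whose product acts on the forming autophagosome, was lower with the smallest adjusted p, at -4.57 ± 0.17 (SE, adjusted p = 1.53e-09). Ulk1 was lower as well, with -1.58 ± 0.22 (SE, adjusted p = 7.30e-05). Map1lc3a, whose product also acts on the forming autophagosome, had -5.02, and its p-value is left out since the filter tied its direction. Uvrag, Vps18 and Vps11 were higher, with 1.19 ± 0.14 (SE, adjusted p = 2.10e-05), 1.08 ± 0.13 (SE, adjusted p = 2.15e-05) and 0.98 ± 0.12 (SE, adjusted p = 2.85e-05). In ADSF against NDSF 2 (12.5%) were called higher, near the 9.88% of all genes, and 0 lower. They were Atg16l1 and Becn1, with 0.52 ± 0.16 (SE, adjusted p = 0.0396) and 0.35 ± 0.11 (SE, adjusted p = 0.0477). Over 20 alternatives the count of higher genes was 0 to 2, and without NDSF library 3 the count of lower genes was 6.

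Windows around annotated starts of the members were read for the E-box of the TFEB family. Promoter windows of RefSeq on GRCm38.p6, the assembly also called mm10, run from 250 bases before to 50 after the start of a gene and were matched for 32 of the 36 members, 5 of them with several starts. The letters CACGTG, which read the same on both strands, were in a window of 11 of the 32 members (34.4%), of 8.09% of all 27025 genes and of 12.0% of the tested genes. With a T before or an A after them (TCACGTG or CACGTGA), they were found for 10 of the 32 members (31.2%), 4.29% of all and 7.18% of the tested genes. The full TCACGTGA, which contains each of the shorter forms, was found for 5 members (15.6%), 1.12% of all and 2.28% of the tested genes. By direction against ADSF, CACGTG was found for 4 of 14 members higher in ADSM, 3 of 10 lower in ADSM and 4 of 8 not called, so that members with these letters were found on all sides. Among those higher in ADSM, Ctsa, Lgmn and Cln3 held the letters at a start inside the deposited span of the gene. For these members the letters thus did not lie upstream of the whole gene.

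The 250 bases before the start are shown for a member of each kind, Lgmn (higher in ADSM), Glb1 (lower in ADSM) and Lamp1 (not called), to show the same letters beside differing values, with CACGTG in capitals. In GRCm38.p6 they lie at chr12:102439093-102439342 (minus strand, the start of Lgmn whose window held the letters), chr9:114400828-114401077 (plus strand) and chr8:13158911-13159160 (plus strand). The Lgmn window lies inside the span of the gene (mm10 chr12:102394098-102439697). The Lamp1 window ends inside the span of Lamp1, which begins at chr8:13159135, so that the match closest to the start lies inside that span.
Lgmn: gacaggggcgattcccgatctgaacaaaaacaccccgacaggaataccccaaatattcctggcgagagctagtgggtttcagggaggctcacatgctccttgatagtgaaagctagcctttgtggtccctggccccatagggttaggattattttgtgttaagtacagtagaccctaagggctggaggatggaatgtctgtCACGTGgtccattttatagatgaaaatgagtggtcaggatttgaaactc
Glb1: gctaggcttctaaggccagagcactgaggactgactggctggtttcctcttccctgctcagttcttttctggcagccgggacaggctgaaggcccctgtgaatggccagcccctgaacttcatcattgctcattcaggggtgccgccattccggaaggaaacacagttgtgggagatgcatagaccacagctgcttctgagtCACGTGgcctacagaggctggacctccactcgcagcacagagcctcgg
Lamp1: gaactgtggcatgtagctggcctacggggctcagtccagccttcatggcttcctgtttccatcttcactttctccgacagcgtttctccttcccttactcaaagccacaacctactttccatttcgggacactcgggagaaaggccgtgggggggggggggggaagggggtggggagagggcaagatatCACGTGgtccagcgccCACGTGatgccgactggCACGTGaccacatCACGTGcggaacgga
Lgmn and Glb1 each held 1 match, which began 49 bases before the start in Lgmn and 48 in Glb1, and the groups were apart in opposite directions for these genes. Lamp1 held 4 matches, the farthest of them 61 bases before the start, and its values overlapped in all groups.

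The bases around TCACGTGA before the start are shown for the 5 members that held it, with 3 bases on each side of the capitals, to show what these members share.
Ctsa: tgtCACGTGatg
Gla: gatCACGTGagc
Gla: ggtCACGTGagc
Cln3: tgtCACGTGacc
Ctsd: tctCACGTGacc
Mcoln1: gctCACGTGacc
The capitals began 12 bases before the start for Ctsa, 227 and 194 for Gla, 121 for Cln3, 98 for Ctsd and 45 for Mcoln1, and Ctsa held a further match after the start. For Ctsa and Cln3 this start lay inside the gene, with mm10 spans of chr2:164832872-164841032 and chr7:126571400-126584280. Ctsa, Gla and Cln3 were higher in ADSM than in ADSF, and Ctsd and Mcoln1 were not called. A match of letters is a description of the window and was not tested as a site.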

How the data were processed

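RNA-seq was read from 9 libraries, 3 each of ADSM, ADSF and NDSF. The authors aligned reads to mm10 and deposited TMM-normalized values per gene, a signal that equals read counts divided by a scaling factor per library, and, for the ADSM and ADSF libraries, FPKM values, with gene length as another deposited column. The submitters' processing notes name TopHat and Cufflinks, and which program counted reads, and whether by strand, is not stated in the sources read here, so overlapping genes on opposite strands (Ctsa with Pltp and Neurl2, Ctsb with Fdft1, Ctsz with Nelfcd, Npc1 with 3110002H16Rik) may share reads. The deposited fold change, p-value and q-value columns hold the authors' own comparisons of the groups and were not used. All values of the 9 libraries were whole multiples of the value of 1 read to within 0.001 (100.0% of values), which gave the reads used for depth, edgeR and DESeq2.

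The 36 members, the 7 pathway lists and the marker lists were chosen with earlier results of these data known. Genes that reached a value of 10 in 3 or more libraries (11889 of 23420) were tested on log2(value + 1) with limma 3.58.1 with a variance trend (R 4.3.3), in 1 model over the 3 groups without covariates, and p-values were adjusted over all genes by Benjamini and Hochberg with a threshold of 0.05, so that fold changes are on the log2(value + 1) scale and understate those of low genes. The test was checked on simulated data. Alternatives were pseudocounts of 0.5 and 4, no filter and a filter of 50, equal library totals, upper-quartile scaling, no trend, edgeR 4.0.16 and DESeq2 1.42.0 on recovered reads, the 2 groups alone, the replicate number as a block, the FPKM table, and each library left out. Per-library values were given for the members with the largest and smallest difference in each role, all members called lower in ADSM, all called between the fibroblast groups and the 5 largest and 5 smallest sums, and for others where space allowed; of each list up to 3 called genes a direction were named, and Tfe3, Tfec, Acp5 and Atp6v0d2 were added after their values were seen. Levels were compared between genes as FPKM, or per kb of the deposited gene length. Some genes of the lists are not reported here by name.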

Additional observations from a re-analysis of the deposited data

How the results depend on the processing

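Across all alternatives, 2010 of 2193 values of single members (700 for ADSM minus ADSF, 666 for ADSM minus NDSF and 644 for ADSF minus NDSF) kept their sign and their side of the threshold, 85 lost a call, 55 gained one and 43 changed sign, none of which was a called value. For ADSM minus ADSF 12 members were lower, but 7 with equal library totals, and the summed level of ADSM over ADSF was 1.14, but 1.44 as a share of the library total. For ADSF minus NDSF the count of lower members was 2 with no variance trend and 0 when the model held these groups alone, and 0 to 20 over the fits that left out 1 library each, and that of higher members was 0 when the model held these groups alone and 0 to 1 over those fits. Equal library totals moved the median of all genes by 0.32 for ADSM minus ADSF and 0.26 for ADSM minus NDSF, and upper-quartile scaling by 0.14 and 0.16, so that changes hold relative to TMM scaling. No filter moved the median of ADSM minus NDSF by -0.14 and a filter of 50, under which Tfeb had no value, by 0.13. The calls over all genes split into 3577 higher and 4874 lower for ADSM minus ADSF (42.3% higher) and into 4926 and 3986 (55.3%) with equal library totals, and for ADSF minus NDSF into 1175 and 1343 (46.7%) and into 845 and 1581 (34.8%). All calls of ADSF minus NDSF numbered 2518, against 1754 when the model held these groups alone. They numbered 4255 without NDSF library 3, 952 without NDSF library 2, 1072 without NDSF library 1, 1191 without ADSF library 2 and 1297 without ADSF library 3. Deviations of same-numbered libraries from their group means correlated between -0.14 and 0.18. Differently numbered libraries were not set beside them, so that this cannot decide whether the replicate numbers pair the libraries by day or batch. The Y-linked genes summed to 337 to 469 in ADSM and to 0 in every fibroblast library. ADSM and fibroblast libraries of the same number thus did not come from the same animal. With the replicate block 17 members were higher and 12 lower for ADSM minus ADSF, 14 and 11 for ADSM minus NDSF, and 1 and 5 for ADSF minus NDSF. Values near 0 were those that changed sign. They did so with equal library totals, where the log2 fold changes were Ctsd 0.11, Fuca1 0.21, Npc1 0.11, Lamp1 0.24 and Mcoln1 0.12 for ADSM minus ADSF, Fuca1 0.016, Lamp1 0.20 and Mcoln1 0.20 for ADSM minus NDSF and Neu1 -0.025 and Lamp1 -0.040 for ADSF minus NDSF. With upper-quartile scaling they were Fuca1 0.025 and Lamp1 0.052 for ADSM minus ADSF and Lamp1 0.093 and Mcoln1 0.095 for ADSM minus NDSF. With DESeq2 on recovered reads they were Scarb2 -0.0089 for ADSM minus ADSF and Ctsl -0.031 for ADSM minus NDSF. With FPKM of the 6 arthritic libraries Scarb2 had -0.023 for ADSM minus ADSF. Over the fits that left out 1 library each, the log2 fold change of ADSM minus ADSF was -0.23 to 0.014 for Fuca1 and -0.038 to 0.068 for Scarb2. For ADSM minus NDSF these ranges were -0.13 to 0.11 for Ctsl, -0.13 to 0.32 for Hexa, -0.21 to 0.013 for Lamp1, -0.0057 to 0.40 for Man2b1 and -0.24 to 0.11 for Mcoln1. For ADSF minus NDSF they were -0.47 to 0.030 for Ctsa, -0.30 to 0.024 for Ctsz, -0.37 to 0.089 for Gaa, -0.027 to 0.30 for Idua, -0.12 to 0.11 for Lamp1, -0.0017 to 0.25 for Mcoln1, -0.11 to 0.20 for Neu1, -0.22 to 0.030 for Npc1, -0.20 to 0.060 for Npc2 and -0.19 to 0.23 for Tpp1. The cause of these changes was not tested, beyond the fewer libraries of the fits that left 1 out. Depth limits genes of few reads, such as Ctsh in ADSM and Cln3 in ADSF.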
